A study of Mus musculus with 12 samples.

Results

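The genes described here are 10 commonly used markers of monocytes and of border-associated macrophages, 10 of the 54532 genes counted in the mouse striatum after experimental stroke. They were taken as a fixed list of names, matched by symbol to the Ensembl identifiers of the count tables, and all 10 were found. Cd163, Mrc1, Lyve1, Pf4 and F13a1 are genes of border-associated macrophages, and Ccr2, Ly6c2, Plac8, Chil3 and Arg1 are genes of monocytes and of the macrophages that monocytes become in injured tissue. The list mixes resident and blood-derived cells by its own make-up, and several of its genes are used by other cells as well, so it is treated below as 10 genes and not as 1 cell type. Striatum of C57BL/6J mice was sampled in 4 groups of 3 libraries: sham (sham+PBS), vehicle (tMCAO+PBS), SN011 (tMCAO+SN-011) and 3d-SN011 (tMCAO+SN-011 again, with the prefix 3d in its titles). tMCAO is transient middle cerebral artery occlusion, in which the artery that feeds the striatum is blocked and then reopened, PBS is the saline solvent control, and SN-011 is an antagonist of STING, an adaptor of innate immune signalling. The labels give no age, sex, dose or time of sampling, do not say what 3d stands for, and do not state whether replicate libraries are different mice, so a p-value covers only the spread between these samples. No sham or vehicle library carries the prefix 3d, so in the comparisons of that arm the drug and whatever 3d denotes cannot be told apart.

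Border-associated macrophages live in the meninges, along penetrating vessels and in the choroid plexus. They are long-lived, stand apart from microglia, and carry scavenger receptors that take up haemoglobin, glycoproteins and hyaluronan from the fluid around vessels. Classical monocytes leave the blood through the chemokine receptor CCR2, carry the surface protein Ly6C, and turn into macrophages in the tissue, where some take on the alternative, repair-associated state known for Arg1, Chil3 and Mrc1. In ischaemic brain both kinds of cell are known to gather around damaged vessels.

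Ly6c2 has a close copy, Ly6c1, on the same chromosome, which is strongly expressed by brain endothelium, so the reading of Ly6c2 as a monocyte gene depends on how far reads can separate the pair. The first 260 coding bases of transcripts Ly6c2-201 (chr15:75108543-75111667, minus strand, GRCm38) and Ly6c1-201 (chr15:75045402-75048511, minus strand) are shown 5′ to 3′, with the bases that differ between them in capitals.
Ly6c2-201: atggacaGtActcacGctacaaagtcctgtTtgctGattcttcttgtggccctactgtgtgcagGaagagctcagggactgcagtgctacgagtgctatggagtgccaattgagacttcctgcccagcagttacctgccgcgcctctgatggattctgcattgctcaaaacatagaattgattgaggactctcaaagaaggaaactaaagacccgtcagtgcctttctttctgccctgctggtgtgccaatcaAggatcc
Ly6c1-201: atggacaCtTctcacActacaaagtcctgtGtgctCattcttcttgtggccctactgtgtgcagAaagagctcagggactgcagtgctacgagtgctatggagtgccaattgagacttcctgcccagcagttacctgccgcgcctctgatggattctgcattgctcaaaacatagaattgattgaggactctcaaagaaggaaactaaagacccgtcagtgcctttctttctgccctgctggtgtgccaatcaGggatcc
The whole coding sequences run for 396 bases each and differ at 9 bases, 7 of them in the stretch shown, an identity of 97.73%. The longest identical run covers 188 bases, from base 66 to base 253 counted from the start codon. Of the 247 windows of 150 bases, the read length, 39 are identical in both, so a read from such a window cannot be assigned to 1 of the pair by its coding sequence alone. Only these 396 of the 2740 exon bases of Ly6c2 were compared, and the mate of each paired read was not considered.

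Promoter sequence was available for 8 of the 10 genes in the RefSeq table (GRCm38.p6). The 250 bases before the start site are shown for 3 of the genes that rose in the 3d-SN011 arm and carry the core bound by PU.1 and related ETS factors of myeloid cells. Plac8, which also rose, has 2 matches to that core and Mrc1, which was not called, has 3. These 2 windows are not shown. Chil3 is shown as a gene whose window has no match to any motif searched. Capitals mark matches on either strand to GAGGAA, which on the opposite strand is read as TTCCTC, and to TTGCNNAA, a pattern bound by C/EBP factors.
Pf4, chr5:90772185-90772434, plus strand: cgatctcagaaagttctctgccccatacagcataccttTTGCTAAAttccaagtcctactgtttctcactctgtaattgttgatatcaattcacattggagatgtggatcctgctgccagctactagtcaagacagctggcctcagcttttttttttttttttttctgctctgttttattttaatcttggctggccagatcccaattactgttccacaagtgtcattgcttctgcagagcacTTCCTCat
F13a1, chr13:37050245-37050494, minus strand: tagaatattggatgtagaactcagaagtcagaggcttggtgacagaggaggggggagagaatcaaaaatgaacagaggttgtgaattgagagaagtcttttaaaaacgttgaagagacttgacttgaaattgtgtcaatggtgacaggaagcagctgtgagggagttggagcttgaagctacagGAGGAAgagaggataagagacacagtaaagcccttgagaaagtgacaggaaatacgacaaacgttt
Ly6c2, chr15:75111972-75112221, minus strand: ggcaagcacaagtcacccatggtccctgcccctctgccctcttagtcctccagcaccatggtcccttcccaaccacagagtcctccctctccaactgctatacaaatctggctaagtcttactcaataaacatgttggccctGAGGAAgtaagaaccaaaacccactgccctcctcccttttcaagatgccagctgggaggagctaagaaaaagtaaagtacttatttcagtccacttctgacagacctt
Chil3, chr3:106167565-106167814, minus strand: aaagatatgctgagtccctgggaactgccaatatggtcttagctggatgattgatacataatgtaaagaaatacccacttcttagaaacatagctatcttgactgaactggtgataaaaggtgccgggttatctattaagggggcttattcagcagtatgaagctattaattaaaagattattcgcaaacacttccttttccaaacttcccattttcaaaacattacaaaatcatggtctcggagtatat
GAGGAA stood in the first window of 5 of the 8 genes and in 23.3% of the 32851 promoters in the table. TTGCNNAA stood in the window of 1 of the 8 (Pf4) and in 9.56% of all promoters. TATAAA, the core of the TATA box, stood in 0 of the 8 and in 12.4% of all. These matches are descriptions of the letters in a window and not sites of binding.

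Libraries held 15806076 to 18622053 counted reads, with 3.77% to 6.82% on mitochondrial genes. Levels are TMM-scaled CPM (reads of a gene relative to all reads of its library), given as mean ± SD with n = 3 or by replicate 1, 2 and 3. Fold changes are log2 values from edgeR's quasi-likelihood test, with Benjamini-Hochberg adjustment over the 18537 genes that had enough counts. A gene was called at an adjusted p under 0.05. The 3d-SN011 arm stood far from the other groups, and its own libraries differed from each other: for pairs of replicates, chi-square over degrees of freedom was 47.2 to 78.2 there and 4.79 to 8.85 in sham. Summed markers of striatal projection neurons, the main neurons of this tissue, ranged from 9567 to 10220 CPM in sham and from 422 to 2402 CPM in the 3d-SN011 arm. Summed homeostatic microglia genes ranged from 537 to 609 CPM in sham and from 2589 to 4223 CPM in the 3d-SN011 arm. In bulk tissue a change in the number of cells of a type and a change in RNA per cell cannot be told apart.

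Between the 3d-SN011 arm and vehicle, 7 of the 9 genes tested were higher, 1 was lower and 1 was not called. Pf4, F13a1, Ccr2, Ly6c2, Plac8, Chil3 and Arg1 rose, Cd163 fell, and Mrc1 missed the threshold. Lyve1 had too few counts to be tested. In this comparison 28.9% of all genes tested were called higher and 28.2% were called lower, 57.1% in all, so a call by itself sets none of these genes apart from the rest of the transcriptome. The median log2 fold change of the 9 was 2.91, against 0.01 over all genes. Pf4, Ly6c2, Plac8, Chil3 and Arg1 reached the level the filter asks for, 0.576 CPM, in 3 to 5 of the 12 libraries, mostly of the SN-011 arms, and so were tested because they are high there. The count and the median are therefore descriptions of the genes that passed and not evidence about all 10.

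**Figure D1:**
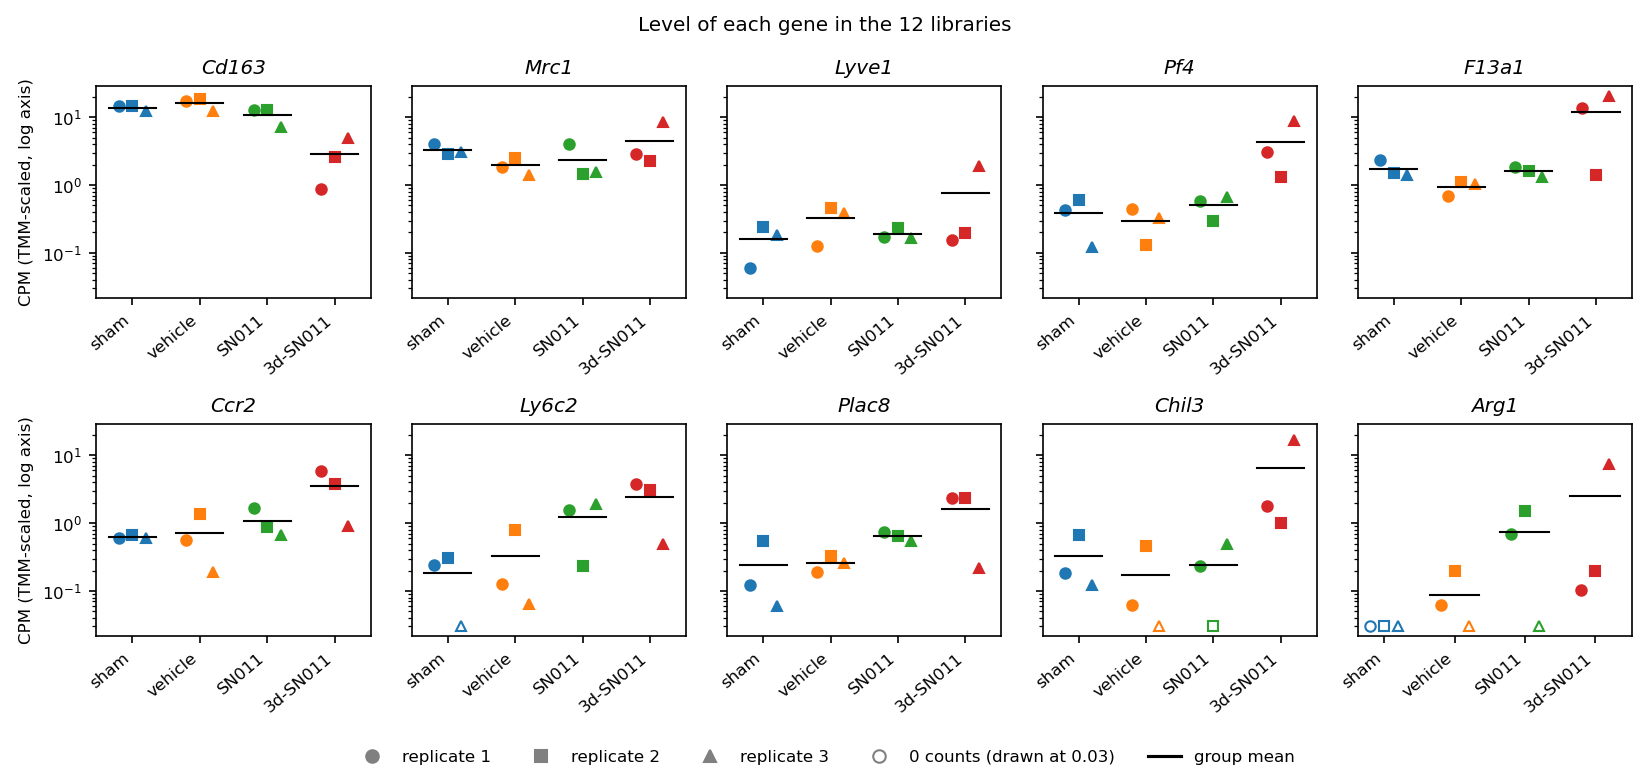
Level of each of the 10 genes in the 12 libraries, in TMM-scaled CPM on a log axis, by group, with 1 symbol per replicate number, a line at the group mean and open symbols for 0 counts. Cd163 alone is lower in all 3 libraries of the 3d-SN011 arm than in every other library, and in Ccr2, Ly6c2 and Plac8 replicate 3 of that arm is its lowest library, whereas in Chil3, Arg1, Pf4 and Lyve1 it is the highest.

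Cd163 (chr6:124304656-124330527, plus strand) encodes the scavenger receptor for haemoglobin bound to haptoglobin. It was the only one of the 9 tested genes called lower in the 3d-SN011 arm. Sham libraries held 14.5, 14.4 and 12.3 CPM, vehicle libraries 17.1, 18.8 and 12.4 CPM, and SN011 libraries 12.7, 12.9 and 7.23 CPM. The 3d-SN011 libraries held 0.870, 2.62 and 5.01 CPM. All 3 lay below every library of the other groups. Cd163 fell by 2.51 on the log2 scale against vehicle (SE 0.44, adjusted p = 0.000365, edgeR) and by 2.28 against sham (SE 0.44, adjusted p = 0.000684, edgeR). It also fell by 1.95 against the SN011 arm (SE 0.43, adjusted p = 0.00306, edgeR). With any 1 library of the 3d-SN011 arm left out it fell by 2.08 to 3.20 against vehicle, called each time.

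The pattern of Cd163 over the 12 libraries lay far from those of the other border-associated macrophage genes. Likeness was measured as the root mean square (RMS) difference between 2 genes' log2 CPM after each was centred on its own mean. The closest genes were sought among 14051 genes whose mean reached 1 CPM, leaving out Gm, Rik and pseudogene names. Distances to the marker lists were taken to every listed gene tested. The 3 genes closest to Cd163 were Muc3a at 0.14, Lmo7 at 0.16 and Doc2b at 0.17. Doc2b is a calcium sensor of vesicle release in neurons and other secretory cells. Genes of striatal projection neurons lay between 0.23 and 0.53 from Cd163, nearest of them Foxp1, a transcription factor of these neurons. Single genes of other lists that also fell lay as near, with Cd4 at 0.25, Cx3cl1 at 0.34 and Arg2 at 0.36. The border-associated macrophage gene closest to Cd163 was Igfbp4 at 1.42, with a median of 2.22 over the 12 other border genes tested, and Mrc1 lay at 1.49. The 16 other monocyte and recruited-macrophage genes tested had a median of 2.16, but Gda, which fell with Cd163 and stood at 181 CPM on average in sham, lay at 0.42. The 4 groups share libraries and depth across all these genes, and whether cells other than macrophages contribute to the Cd163 counts was not tested.

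Mrc1 (chr2:14229392-14332057, plus strand) encodes the mannose receptor CD206, the usual surface marker of border-associated macrophages and of alternatively activated macrophages. The microRNA gene Mir511 lies inside it on the same strand. Sham libraries held 4.06, 2.91 and 3.02 CPM, vehicle libraries 1.87, 2.54 and 1.42 CPM, SN011 libraries 4.04, 1.46 and 1.53 CPM, and 3d-SN011 libraries 2.87, 2.27 and 8.40 CPM. Replicate 3 of the 3d-SN011 arm was the highest of all 12, and the other 2 libraries of the arm lay within the range of the other groups. The log2 fold change against vehicle was 1.21 (SE 0.52, adjusted p = 0.0615, edgeR), and without replicate 3 of the arm it was 0.40. Without replicate 1 or replicate 2 of the arm Mrc1 passed the threshold (adjusted p = 0.0407 and 0.0239, edgeR), and it did so with DESeq2 (adjusted p = 0.0414). The log2 fold change against sham was 0.43 (SE 0.50, adjusted p = 0.475, edgeR). Vehicle libraries all lay below the sham libraries, with a log2 fold change that was not called. Mrc2, a relative of Mrc1 that serves as a collagen receptor of fibroblasts, rose by 2.31 in log2 fold change against vehicle (SE 0.31, adjusted p = 5.67e-05, edgeR).

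Lyve1 (chr7:110850607-110863239, minus strand) encodes a hyaluronan receptor of perivascular macrophages and of lymphatic endothelium. Its level was 0.06 to 0.24 CPM in sham, 0.12 to 0.46 CPM in vehicle and 0.16 to 0.23 CPM in SN011. The 3d-SN011 libraries held 3, 4 and 36 counts, or 0.15, 0.20 and 1.94 CPM. Replicate 3 alone stood above every other library. Fitted without a filter on low counts, the log2 fold change was 1.21 against vehicle (SE 0.80, adjusted p = 0.295, edgeR). Of the lymphatic markers, Ccl21a had 0 counts in all 12 libraries and Mmrn1 had 0 in the 3d-SN011 arm, while Prox1, which brain cells also express, stood at 22.5 to 41.5 CPM there. Of the 4 lymphatic markers tested, Pdpn and Flt4 rose against vehicle, by 2.94 and 0.61 in log2 fold change (adjusted p = 0.000102 and 0.0195, edgeR). Reln, which neurons also express, fell by 2.96 (adjusted p = 3.6e-05, edgeR). Reln, at 233 CPM on average in sham and 25.5 CPM in the 3d-SN011 arm, set the sum of the 6 markers, which was 266 to 286 CPM in sham and 109 to 212 CPM in the arm.

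Pf4 (chr5:90772435-90773383, plus strand) encodes platelet factor 4, the chemokine CXCL4, which platelets store and border-associated macrophages also make. Sham libraries held 0.43, 0.61 and 0.12 CPM, vehicle libraries 0.44, 0.13 and 0.32 CPM, and SN011 libraries 0.58, 0.29 and 0.66 CPM. The 3d-SN011 libraries held 3.07, 1.33 and 8.67 CPM. All 3 lay above every library of the other groups. Pf4 rose by 3.84 in log2 fold change against vehicle (SE 0.74, adjusted p = 0.000729, edgeR), by 3.48 against sham (adjusted p = 0.00108, edgeR) and by 3.07 against SN011 (adjusted p = 0.00294, edgeR). Without replicate 3 of the arm the log2 fold change against vehicle was 2.85 (adjusted p = 0.00188, edgeR). Ppbp, the other abundant platelet chemokine, had 0, 3 and 0 counts in the 3d-SN011 libraries. Over the vehicle libraries Ppbp had 17 counts. Gp9, another platelet marker, had 20 counts in vehicle and 20 in the 3d-SN011 arm. The sum of the 9 platelet markers was 4.31 to 6.18 CPM in vehicle and 10.1 to 16.6 CPM in the 3d-SN011 arm. Most of it was the integrin Itga2b, at 9.62, 7.12 and 10.2 CPM in the arm. Of the 3 tested Itga2b rose (log2 fold change 1.71, adjusted p = 0.000226, edgeR). The other 2, at 0.70 and 0.72, were not called.

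F13a1 (chr13:36867178-37050244, minus strand) encodes the A chain of coagulation factor XIII, the enzyme that cross-links fibrin, found in platelets, monocytes and resident macrophages. Gm49144 and Gm30489 overlap it on the opposite strand, and the counting is not stated to use strand. Sham libraries held 2.31, 1.51 and 1.39 CPM, vehicle libraries 0.69, 1.11 and 1.03 CPM, SN011 libraries 1.85, 1.64 and 1.31 CPM, and 3d-SN011 libraries 13.7, 1.38 and 20.8 CPM. Replicates 1 and 3 of the 3d-SN011 arm lay far above all others, and replicate 2 lay at the level of sham. F13a1 rose by 3.66 in log2 fold change against vehicle (SE 0.72, adjusted p = 0.000838, edgeR), by 2.78 against sham (adjusted p = 0.00335, edgeR) and by 2.90 against SN011 (adjusted p = 0.00392, edgeR). The call against SN011 was lost with limma voom (adjusted p = 0.0529). Summed genes of leptomeningeal and perivascular fibroblasts were high and low in the same libraries, at 514, 136 and 1047 CPM in the 3d-SN011 replicates 1 to 3 and 95.1 to 106 CPM in vehicle. Col3a1, a fibrillar collagen, stood at 106, 3.61 and 203 CPM in these 3 libraries. The genes closest to F13a1 over the 12 libraries were Eln at 0.41, Col4a1 and Col18a1, which encode elastin and basement membrane collagens. The part of these cells in the F13a1 counts was not tested.

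Ccr2 (chr9:124101950-124113557, plus strand) encodes the receptor that draws classical monocytes out of the marrow and into tissue. Sham libraries held 0.61, 0.67 and 0.60 CPM, vehicle libraries 0.56, 1.37 and 0.19 CPM, SN011 libraries 1.68, 0.88 and 0.66 CPM, and 3d-SN011 libraries 5.78, 3.81 and 0.92 CPM. Replicates 1 and 2 of the 3d-SN011 arm were the highest of all 12, and replicate 3 overlapped vehicle and SN011. Ccr2 rose by 2.30 in log2 fold change against vehicle (SE 0.68, adjusted p = 0.0111, edgeR), by 2.47 against sham (adjusted p = 0.00772, edgeR) and by 1.71 against SN011 (adjusted p = 0.0445, edgeR). Without replicate 1 of the arm the call against vehicle was lost (adjusted p = 0.0534, edgeR), and the call against SN011 was lost without 3d-SN011 replicate 1 or 2 or SN011 replicate 2 or 3 and with limma voom (adjusted p = 0.0501) or a fit of the 6 libraries of both arms alone (adjusted p = 0.0912, edgeR).

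The ligands of CCR2 are named here for that role, after their values were seen. Ccl2, the main one, stood at 0.13 ± 0.07 CPM in vehicle and at 5.17, 6.18 and 4.42 CPM in the 3d-SN011 libraries. It rose by 5.28 in log2 fold change against vehicle (SE 0.88, adjusted p = 0.000257, edgeR). Ccl12, a second ligand, held 18.1, 18.4 and 6.95 CPM in the 3d-SN011 libraries and rose by 4.54 against vehicle (SE 0.64, adjusted p = 8.06e-05, edgeR). Ccl7 had too few counts to be tested. In the SN011 arm Ccl2 held 2.60, 0.17 and 2.52 CPM, and Ccl12 held 4.10, 0.76 and 5.97 CPM. Replicate 2 was the lowest of that arm for both ligands and for Ly6c2, and neither ligand was called between SN011 and vehicle.

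Ly6c2 (chr15:75108158-75111970, minus strand) encodes the Ly6C antigen that defines classical monocytes. Sham libraries held 0.24, 0.30 and 0 CPM, vehicle libraries 0.12, 0.78 and 0.06 CPM, SN011 libraries 1.56, 0.23 and 1.92 CPM, and 3d-SN011 libraries 3.79, 3.11 and 0.48 CPM. As with Ccr2, replicates 1 and 2 of the 3d-SN011 arm were high and replicate 3 lay within the vehicle range. Ly6c2 rose by 2.91 in log2 fold change against vehicle (SE 0.99, adjusted p = 0.0231, edgeR) and by 3.71 against sham (adjusted p = 0.00948, edgeR). Against SN011 the log2 fold change was 0.99 (adjusted p = 0.358, edgeR). The call against vehicle was lost without 3d-SN011 replicate 1 or 2 or vehicle replicate 1 or 3, at adjusted p from 0.0527 to 0.0852 (edgeR).

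The copy shown above, Ly6c1, was far more abundant and divided among the libraries differently. It stood at 24.5 to 31.4 CPM in vehicle and at 46.5, 53.3 and 80.6 CPM in the 3d-SN011 replicates 1 to 3, and rose by 1.06 in log2 fold change against vehicle (SE 0.19, adjusted p = 0.000536, edgeR). Its highest library was replicate 3, in which Ly6c2 was lowest. The number of Ly6c2 counts that come from Ly6c1 was not tested. The genes closest to Ly6c2 were Cd74 at 0.47, H2-Aa and Ms4a4b, of which Cd74 and H2-Aa belong to class II antigen presentation.

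Plac8 (chr5:100553725-100572245, minus strand) encodes a small cysteine-rich protein abundant in classical monocytes and other leukocytes. Sham libraries held 0.12, 0.55 and 0.06 CPM, vehicle libraries 0.19, 0.33 and 0.26 CPM, SN011 libraries 0.75, 0.64 and 0.55 CPM, and 3d-SN011 libraries 2.35, 2.32 and 0.21 CPM. Replicate 3 of the 3d-SN011 arm lay within vehicle and sham, and every SN011 library lay above every vehicle library. Plac8 rose by 2.64 in log2 fold change in the 3d-SN011 arm against vehicle (SE 0.80, adjusted p = 0.0133, edgeR) and by 2.72 against sham (adjusted p = 0.0113, edgeR). The call against vehicle was lost without vehicle replicate 1 (adjusted p = 0.0528, edgeR). Against SN011 it was 1.33 (adjusted p = 0.14, edgeR), and 1.84 without 3d-SN011 replicate 3, where it was called (adjusted p = 0.0105, edgeR).

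Replicate 3 of the 3d-SN011 arm was also its lowest library for the T-cell and natural killer cell markers Cd3e, Cd3g, Cd3d, Cd8a, Cd2 and Nkg7. Cd3e, a chain of the T-cell receptor complex, stood at 3.33, 1.24 and 0.16 CPM in replicates 1 to 3 and at 0.06 to 0.12 CPM in vehicle. Cd3d, another chain of that complex, stood at 1.23, 1.38 and 0.11 CPM in these 3 libraries. The B-cell receptor gene Cd79b, at 2.15, 2.27 and 2.59 CPM, did not show this division. Of the 12 lymphocyte markers 6 were tested, 4 rose against vehicle and 1, Cd4, fell by 2.65 in log2 fold change (adjusted p = 4.52e-05, edgeR). Over all genes tested 28.9% rose and 28.2% fell in that comparison. Cd4 stood at 82.4 to 93.8 CPM in sham, where Cd3e had 0 counts in every library. The part of lymphocytes in the Plac8 and Ly6c2 counts was not tested.

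Chil3 (chr3:106147554-106167564, minus strand) encodes Ym1, a chitinase-like protein secreted by alternatively activated macrophages and also made by neutrophils and monocytes. Sham libraries held 0.18, 0.67 and 0.12 CPM, vehicle libraries 0.06, 0.46 and 0 CPM, SN011 libraries 0.23, 0 and 0.49 CPM, and 3d-SN011 libraries 1.79, 0.99 and 16.8 CPM. All 3 libraries of the 3d-SN011 arm lay above all others, and replicate 3 held 85.8% of the arm's CPM. Chil3 rose by 5.19 in log2 fold change against vehicle (SE 1.28, adjusted p = 0.00393, edgeR), by 4.30 against sham (adjusted p = 0.00701, edgeR) and by 4.69 against SN011 (adjusted p = 0.00689, edgeR). Without replicate 3 it was 2.97 against vehicle (adjusted p = 0.025, edgeR), and 2.08 against sham, where the call was lost (adjusted p = 0.0723, edgeR). Its copy Chil4 had at most 2 counts in any library.

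Arg1 (chr10:24915221-24927484, minus strand) encodes arginase 1, which turns arginine into ornithine and urea and marks repair-associated macrophages. It had 0 counts in all 3 sham libraries, 1, 3 and 0 counts in vehicle, 12, 26 and 0 counts in SN011, and 2, 4 and 136 counts in the 3d-SN011 libraries. The 3d-SN011 levels were 0.10, 0.20 and 7.33 CPM, so replicate 3 held 96.1% of the arm's CPM, while replicates 1 and 2 lay below the first 2 SN011 libraries. Arg1 rose by 4.77 in log2 fold change against vehicle (SE 1.83, adjusted p = 0.044, edgeR). The call against vehicle was lost without 3d-SN011 replicate 3 (log2 fold change 0.77, adjusted p = 0.713, edgeR) and without any 1 of the vehicle libraries, and also with DESeq2 (adjusted p = 0.0731) and limma voom (adjusted p = 0.335). Against sham it was called (adjusted p = 0.0198, edgeR) and was at least 42.0-fold higher, taking 3 counts over the group as the floor of sham. Without replicate 3 of the arm that bound was 2.48-fold and the call was lost (adjusted p = 0.162, edgeR), as it was with limma voom (adjusted p = 0.0523).

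Neutrophil markers were summed beside these genes, since neutrophils also make Chil3. Ly6g, their defining marker, had 0, 2 and 0 counts in the 3d-SN011 libraries. The sum of the 12 neutrophil markers was 5.22, 4.50 and 8.13 CPM there, against 1.35 to 3.25 CPM in vehicle. Mmp8, a neutrophil collagenase singled out after its values were seen, held 3.43, 0.35 and 4.15 CPM of that sum. It had 67, 7 and 77 counts in the 3d-SN011 libraries and at most 1 in a vehicle library. The sum was highest in replicate 3, as Chil3 was, but single markers went either way. S100a8, Mmp8, Mmp9, Cxcr2 and Elane were highest in replicate 3. S100a9, Camp, Ltf, Retnlg, Ly6g and Mpo were highest in replicate 2, and Ngp in replicate 1. Of the 12 markers 2 were tested and 0 were called. The part of neutrophils in the Chil3 counts was not tested.

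The other genes of arginine use, named for that role after their values were seen, were spread more evenly over the 3d-SN011 libraries than Arg1. Arg2, the mitochondrial arginase, fell by 2.59 in log2 fold change against vehicle (SE 0.31, adjusted p = 2.63e-05, edgeR), with 0.77, 1.24 and 1.94 CPM in the 3d-SN011 libraries. Nos2, the inducible nitric oxide synthase that competes for arginine, rose by 2.32 (SE 0.51, adjusted p = 0.002, edgeR), with 2.46, 2.22 and 1.78 CPM. Slc7a2, a carrier of arginine, rose by 1.33 (adjusted p = 4.77e-05, edgeR). Odc1, which starts polyamine synthesis from ornithine, rose by 0.86 (adjusted p = 0.00034, edgeR).

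**Figure D2:**
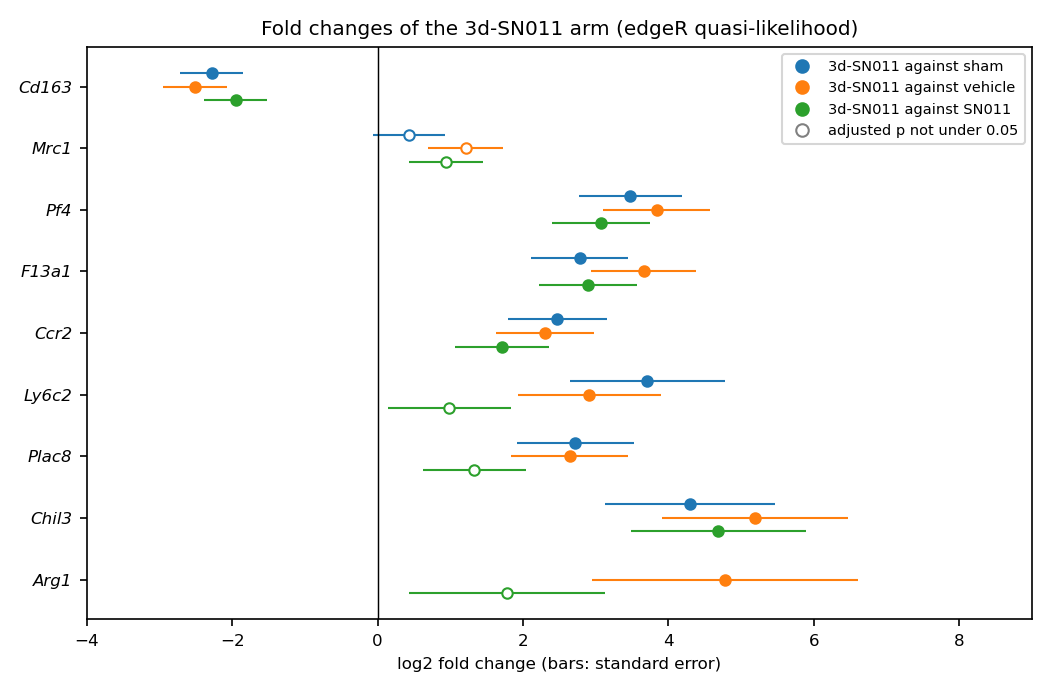
Fold change of the 9 tested genes in the 3d-SN011 arm against each other group, on the log2 scale from edgeR, with bars for the standard error and open points where the adjusted p was not under 0.05. Cd163 is the only gene left of 0, Mrc1 is open in all 3 comparisons, and Ly6c2, Plac8 and Arg1 are open against the SN011 arm; Arg1 against sham is not drawn because sham had 0 counts.

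The 3 comparisons of the 3d-SN011 arm share its libraries, so they do not repeat each other. Against sham 7 of the 9 genes were called higher and 1 lower, where 57.6% of all genes were called (29.8% higher and 27.9% lower). Against SN011 4 were called higher, Pf4, F13a1, Ccr2 and Chil3, and 1 lower, Cd163, where 46.4% of all genes were called (23.6% higher and 22.9% lower). Groups did not overlap for 4 of the 9 genes against vehicle (59.4% of all genes), for 6 against sham (63.3%) and for 3 against SN011 (50.3%). These shares are near or below those over all genes. Without 3d-SN011 replicate 3, 5 genes remained called higher against sham, and without replicate 1 or 2, 3 were called higher against SN011.

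None of the 9 genes was called by edgeR or DESeq2 in the comparisons that leave the 3d-SN011 arm out. Between vehicle and sham, the comparison of occlusion itself, edgeR called 0% of all genes, 0 of the 9 had an unadjusted p under 0.05 (2.52% of all genes), and the median log2 fold change of the 9 was 0.08. F13a1 and Mrc1 did not overlap between these groups, both lower in vehicle, where 13.2% of all genes did not overlap. Between SN011 and vehicle, the comparison of the drug within occlusion, edgeR called 0.0162% of all genes, 0 of the 9 had an unadjusted p under 0.05 (11.1% of all genes), and the median was 0.76. The share of all genes called there depended on single libraries: it was 2.68% without SN011 replicate 2 and 0% without any 1 vehicle library. F13a1 and Plac8 did not overlap between them, both higher in SN011, where 16.3% of all genes did not overlap. Between SN011 and sham, edgeR called 0.113% of all genes (3.62% without SN011 replicate 2, 0.193% without SN011 replicate 3 and 0% without any 1 sham library) and the median was 0.41, and only Ly6c2 had an unadjusted p under 0.05, at 0.0275 (edgeR), with an adjusted p of 0.31 (edgeR); 12.8% of all genes passed that unadjusted threshold. Plac8 did not overlap there, where 25.6% of all genes did not overlap. Limma voom with quality weights called 1 of the 9 between SN011 and sham, Arg1.

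The libraries of the 3d-SN011 arm divided the genes into a set that was lowest in replicate 3 and a set that was highest there. Replicate 3 held 8.72% of the arm's CPM of Ccr2, 6.56% of Ly6c2 and 4.40% of Plac8, well under an equal share of the 3 libraries. It held 58.9% of Cd163, 62.0% of Mrc1, 57.9% of F13a1, 66.3% of Pf4, 84.7% of Lyve1, 85.8% of Chil3 and 96.1% of Arg1. Ccr2, Ly6c2 and Plac8 were thus highest in replicates 1 and 2, and the other 7 genes of the set were highest in replicate 3. Over the same libraries, replicate 3 held 24.3% of the summed homeostatic microglia genes, 53.8% of the striatal projection neuron genes, 61.7% of the fibroblast genes and 9.50% of the red blood cell genes. The choroid plexus markers lay mostly in replicate 2, with 83.5%. The sums of the wider lists were set largely by their most abundant genes. Summed other border-associated macrophage genes were split 38.9%, 25.2% and 35.9% over replicates 1 to 3, highest in replicate 1. In this list Fcrls stood at 692, 584 and 304 CPM and Stab1 at 551, 173 and 763 CPM. Summed other monocyte and recruited-macrophage genes were split 30.5%, 22.1% and 47.4%, highest in replicate 3. In that list S100a4, at 2.30, 2.42 and 1.08 CPM, was lowest in replicate 3, and Fn1, at 296, 105 and 403 CPM, was highest there. Single genes of both lists thus went either way. The part of tissue make-up in the division of Ccr2, Ly6c2 and Plac8 from the other 7 genes was not tested. With 1 library on 1 side this division has no replicate.

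**Figure D3:**
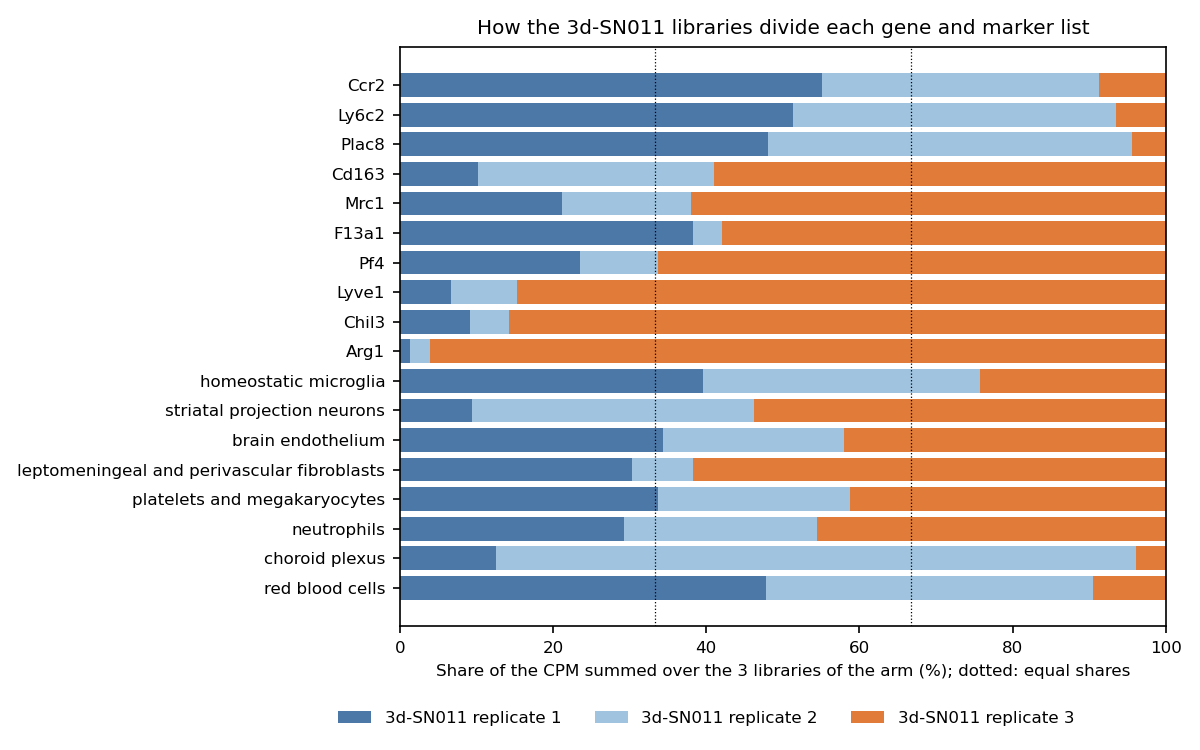
Share of each gene's CPM, and of the summed CPM of marker lists, that each of the 3 libraries of the 3d-SN011 arm held, in percent, with dotted lines at equal shares. Replicate 3 holds 4.40% to 8.72% of Ccr2, Ly6c2 and Plac8 and 57.9% to 96.1% of the other 7 genes.

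**Figure D4:**
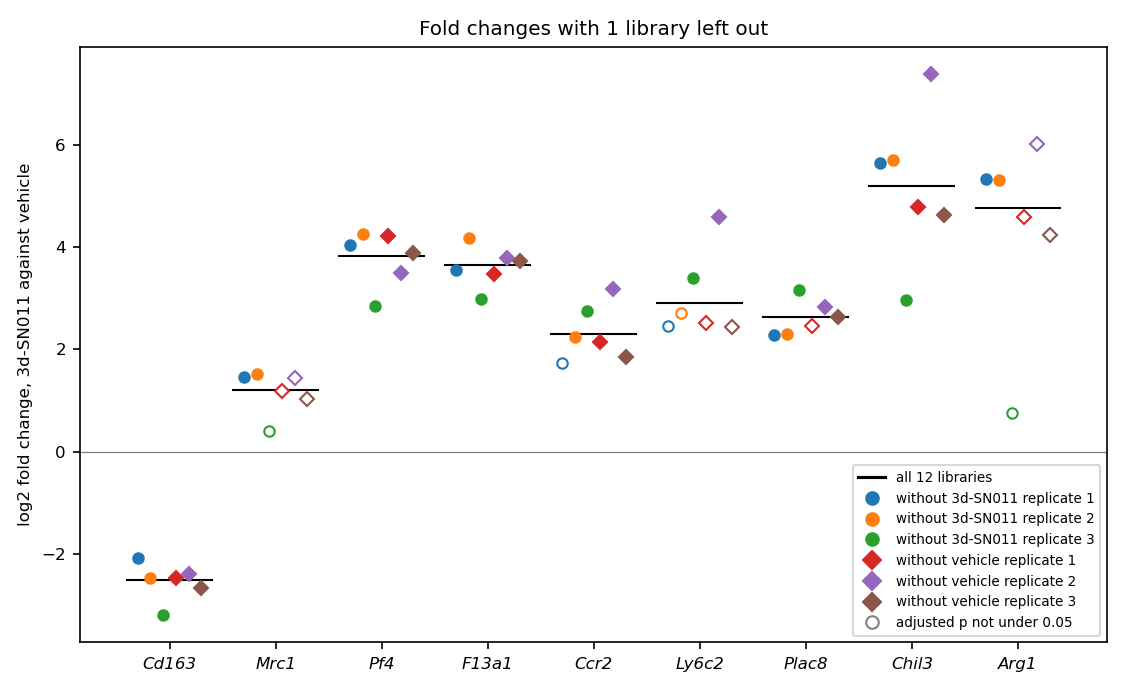
Log2 fold change of the 3d-SN011 arm against vehicle for the 9 tested genes with all 12 libraries (line) and with 1 library left out (points), open where the adjusted p was not under 0.05 (edgeR). Arg1 drops from 4.77 to 0.77 and Chil3 from 5.19 to 2.97 without 3d-SN011 replicate 3, while Cd163, Pf4, F13a1 and Chil3 stay called in all 6 fits with a library left out.

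Levels between genes can be compared only per length, as CPM per kilobase of exon. In sham the order was Cd163 at 2.52, Pf4 at 0.53, Mrc1 at 0.52, F13a1 at 0.26, Chil3 at 0.20, Plac8 at 0.15, Ccr2 at 0.09, Ly6c2 at 0.07 and Lyve1 at 0.06 CPM per kilobase, with Arg1 listed at 0. Cd163 stood clear of the rest, and Mrc1 lay above F13a1 by more than their SDs. The neighbours Pf4 and Mrc1, and those from F13a1 down to Lyve1, did not differ beyond their spread. In the 3d-SN011 arm the order was Pf4 at 6.05 ± 5.32, Chil3 at 3.99 ± 5.44, F13a1 at 1.78, Arg1 at 1.14, Plac8 at 1.02, Ly6c2 at 0.90, Mrc1 at 0.71, Cd163 and Ccr2 both at 0.52 and Lyve1 at 0.26 CPM per kilobase. The SDs there are so wide that no neighbours in this order differ beyond their spread. Cd163 moved from the first place to near the end.

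Most tested genes of the other border-associated macrophage list, some of them shared with other cell types, rose in the 3d-SN011 arm where Cd163 fell. Of 18 listed, 12 were tested, 11 rose against vehicle and 0 fell, with a median log2 fold change of 2.40. Over all genes tested 28.9% rose and 28.2% fell. Homeostatic microglia genes rose alike, 11 of 12 with a median of 2.46, so the rise is not particular to border-associated macrophages. Among the genes with too few counts to be tested, Cd209f had 7 counts in vehicle and 0 in the 3d-SN011 arm. Clec10a, also untested, had 8 and 53. Siglec1, a sialic acid receptor of perivascular and meningeal macrophages, stood at 0.50, 0.85 and 0.90 CPM in vehicle and at 33.1, 24.3 and 47.9 CPM in the 3d-SN011 arm, a log2 fold change of 5.54 (SE 0.42, adjusted p = 1.21e-05, edgeR). Stab1, a scavenger receptor of the same cells, stood at 551, 173 and 763 CPM in the 3d-SN011 arm, a log2 fold change of 4.30 (SE 0.47, adjusted p = 1.89e-05, edgeR). Siglec1 was also called between SN011 and vehicle, at 3.47, 5.32 and 9.32 CPM in SN011 (log2 fold change 3.00, SE 0.41, adjusted p = 0.0414, edgeR). That call was lost with any 1 of the 3 vehicle libraries left out, where edgeR called 0 genes in all. The other 11 tested genes of the list were not called there.

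Of 19 other monocyte and recruited-macrophage genes, 16 were tested, 13 rose and 3 fell against vehicle, with a median log2 fold change of 2.85. The shares over all genes tested were 28.9% and 28.2%. As with the members, some genes of the marker lists passed the filter through the SN-011 arms, where they are high. Among them S100a4, Ifitm6 and Ccl8 held under 0.576 CPM in every sham and vehicle library. The counts and medians of the lists are therefore descriptions of the genes that passed. Fcgr1, the high-affinity receptor for antibody, held 73.0, 82.8 and 58.4 CPM in the 3d-SN011 arm and rose by 4.06 in log2 fold change (SE 0.50, adjusted p = 3.3e-05, edgeR). Fn1, fibronectin, which macrophages and vessel cells both make, held 296, 105 and 403 CPM and rose by 2.48 (SE 0.35, adjusted p = 7.39e-05, edgeR). Fcgr1 is also a microglial gene, and 11 of 12 homeostatic microglia genes rose in the same comparison.

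Of 13 chemoattractants, growth factors and growth factor receptors of monocytes, 11 were tested, 9 rose and 2 fell, with a median of 4.04. The receptors Csf1r, Csf2ra and Csf2rb are among the 9. Csf1r stood at 128 CPM on average in vehicle and 926 CPM in the 3d-SN011 arm, where 11 of 12 homeostatic microglia genes also rose. Csf2rb, the shared receptor chain for GM-CSF, held 53.5, 32.8 and 64.1 CPM in the 3d-SN011 arm and rose by 4.04 in log2 fold change (SE 0.45, adjusted p = 2.02e-05, edgeR). Cx3cl1, the neuronal ligand of the microglial and monocyte receptor CX3CR1, fell by 2.35 from 977 to 191 CPM on average (SE 0.26, adjusted p = 2.03e-05, edgeR). Of 19 genes listed for alternative activation and wound repair, 16 were tested, 13 rose and 2 fell, with a median of 2.50. The list includes the genes of arginine use named above. Nos2, which competes with arginase for arginine and is no marker of alternative activation, is thus among the 13. Beside the counts of both lists, 28.9% of all genes tested rose and 28.2% fell. Tgfb1, the cytokine TGF-beta 1, rose by 3.87 in log2 fold change (adjusted p = 1.23e-05, edgeR), and Stat6, the factor that carries interleukin-4 signals, rose by 1.73 (adjusted p = 1.57e-05, edgeR). Il4ra, the interleukin-4 receptor chain, named for its role after its values were seen, held 66.3, 41.4 and 86.4 CPM in the 3d-SN011 arm and rose by 4.03 (adjusted p = 1.64e-05, edgeR). With 1 library of the 3d-SN011 arm left out, 11 to 13 border-associated, 11 to 12 monocyte, 9 chemoattractant and 13 repair genes rose against vehicle. The 13 border-associated genes came without replicate 2, where 14 passed the filter. In these fits 51% to 58.1% of all genes tested were called, in either direction.

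The remaining genes differed in which genes they followed over the 12 libraries. Mrc1 was closest to Emcn at 0.32, Lrrc32 and Robo4, of which Emcn and Robo4 are endothelial genes. Pf4 was closest to Sh2b2 at 0.46, Zc3h12a and Tgfbi. Ccr2 was closest to Spn at 0.48, Ifi203 and Irgm2, and Plac8 to Ropn1l at 0.52, Trac and Irgm2. Spn encodes a surface sialoprotein of leukocytes, Trac the constant part of the T-cell receptor alpha chain, and Irgm2 an interferon-induced GTPase. Chil3 was closest to Lrg1 at 0.83, Loxl2 and Mgp, and Arg1 to Map3k6 at 1.13, Adam8 and Inmt, the loosest match of the 9 genes. These distances describe these 12 libraries, in which most of the spread lies between the 3d-SN011 arm and the rest.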

How the data were processed

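PolyA+ RNA of C57BL/6J striatum was extracted with Trizol and sequenced as paired reads of 150 bases, per the labels' protocols. The authors deposited 1 table of raw read counts for each library, with Ensembl gene identifiers. The submitters' processing notes name HISAT2, featureCounts and the build mm10. Tool versions, the annotation used and any strand option: not given in the sources used here. Groups were taken from the titles. Counts were fitted in R 4.3.3 with edgeR 4.0.16: filterByExpr by group (minimum count 10), TMM, and 1 quasi-likelihood model of all 12 libraries with group as the only term, which was also tested on simulated data. Standard errors were obtained as the absolute log2 fold change over the square root of F. Replicates differed by more than sampling noise, so each counted once. Alternatives were RLE scaling, DESeq2 1.42.0, voom with quality weights in limma 3.58.1, no filter, fewer libraries, a replicate block and leaving out each replicate; list counts without each library of the 3d-SN011 arm were chosen after seeing the data. Positions and exon lengths come from GENCODE M21. Figures were drawn with matplotlib 3.10.9.

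The members and gene lists were chosen with earlier results of these data known. Genes named are the 10 members, from each other list the 2 called genes with the smallest adjusted p in the comparison with most members called (3d-SN011 against vehicle, which ties with sham), near copies, markers of other cells, and the 3 closest genes by RMS distance.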

Additional observations from a re-analysis of the deposited data

How the results depend on the processing

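Fold changes of single genes kept their direction and side of the threshold in 307 of 323 values under another scaling, tool, filter or set of libraries and in 287 of 324 values with a replicate left out. Most of these values were not called in the main fit, and a value that stayed so counts as kept. With a replicate left out 16 calls were lost and 4 gained. Under another setting 8 were lost and 3 gained. Over all genes, the share called between SN011 and vehicle went from 0.0162% to 1.76% with no filter and 6.36% with voom, and between SN011 and sham from 0.113% to 2.27% and 10.1%. The number of members called was 5 between the 3d-SN011 arm and sham in a fit of those 6 libraries only, where Ly6c2, Plac8 and Arg1 had too few counts to be tested, 3 between the 3d-SN011 and SN011 arms with voom and quality weights, and 1 between SN011 and sham with voom. It ranged from 5 to 8 against vehicle with a replicate left out, with 5 without vehicle replicate 1. For the other changes the cause was not tested. Signs changed only for values not called. With voom these were Ccr2 between vehicle and sham (-0.077), F13a1 between SN011 and sham (0.083), Mrc1 between the 3d-SN011 arm and sham (-0.035) and Arg1 between the 3d-SN011 and SN011 arms (-0.86). With a replicate left out, the log2 fold change between vehicle and sham ranged from -0.37 to 1.42 for Plac8, -0.78 to 0.12 for Pf4, -3.09 to 0.17 for Chil3, -0.71 to 0.61 for Ccr2 and -0.89 to 1.35 for Ly6c2. Between SN011 and vehicle it ranged from -0.37 to 0.52 for Mrc1 and -0.53 to 2.70 for Chil3. Between SN011 and sham it ranged from -0.26 to 0.14 for F13a1, -1.42 to 0.67 for Chil3 and -0.013 to 0.89 for Pf4. Against sham Mrc1 of the 3d-SN011 arm ranged from -0.38 to 0.75, and against SN011 Arg1 ranged from -2.23 to 2.86.

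Replicate numbers are shared by the groups, but same-numbered libraries did not deviate together (correlations from -0.293 to 0.143), so the numbers do not pair them. With the number as a block, 7, 7 and 5 members were called in the 3d-SN011 arm against vehicle, sham and SN011, and 0 in the other comparisons; Arg1 was lost against vehicle (adjusted p = 0.15, edgeR) and sham (adjusted p = 0.0579, edgeR), and Ccr2 between vehicle and sham turned to -0.0038. At these depths 3 counts amount to 0.148 to 0.195 CPM in a library. Levels of Lyve1, Arg1, Chil3, Pf4 and Plac8 outside the 3d-SN011 arm, and of Ly6c2 in sham and vehicle, therefore rest on few reads. Plac8 had 3, 5 and 4 counts in the vehicle libraries and 13, 11 and 10 in the SN011 libraries.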

Other observations

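Of 8 dendritic cell markers 5 were tested, and 1, the integrin Itgae, rose in the 3d-SN011 arm against vehicle (log2 fold change 2.86, SE 0.73, adjusted p = 0.0049, edgeR). Most of the summed level of that list was Fscn1, which other cells also express, at 281 to 333 CPM on average in the 4 groups. Cd209a, a marker of monocyte-derived dendritic cells, held 0.87, 0.35 and 0 CPM in the 3d-SN011 replicates 1 to 3. Cd79b, a chain of the B-cell receptor complex that microglia also express, rose by 4.66 in log2 fold change against vehicle (SE 0.48, adjusted p = 1.58e-05, edgeR). Thbs1, thrombospondin 1, one of the other monocyte genes and chosen after its values were seen, held 19.4, 8.75 and 159 CPM in the 3d-SN011 libraries and was thus highest in the library where Arg1 and Chil3 were highest.

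Some lists of other cells fell in the same comparison, in which 28.2% of all genes tested were called lower. All 11 tested genes of striatal projection neurons fell, among them Bcl11b by 2.73 and Rgs9 by 2.90 in log2 fold change (adjusted p = 1.59e-05 and 4.58e-05, edgeR). Of 10 choroid plexus genes 9 fell, but their sum ranged from 113 to 2619 CPM within sham alone. Of 5 red blood cell genes 2 fell, Alas2 by 1.20 and Hbb-bs by 1.24 in log2 fold change (adjusted p = 0.0144 and 0.0196, edgeR).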
